A study of Homo sapiens with 12 samples.

Results

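Costimulatory ligands, checkpoint ligands and death receptors are the proteins through which a T cell or natural killer cell engages, is restrained by or kills a tumor cell. The genes described here were listed by function and not by their measured values, although earlier results of these data were known when they were chosen. They are the costimulatory genes CD80, CD86, ICOSLG and CD40, the checkpoint ligand genes CD274 and LGALS9, the death receptor genes FAS, TNFRSF10A and TNFRSF10B, and the death ligand gene TNFSF10. All 10 were found among the 38478 genes of the deposited expression matrix. The samples were cultures of OPM-1, an established human multiple myeloma cell line, kept for 48 h in the vehicle DMSO, in lenalidomide (LEN) at 0.1 μM, in AI-10-104, which inhibits RUNX transcription factors, at 1 μM, or in LEN and AI-10-104 together (LEN+AI-10-104). Polyadenylated RNA from 3 biological replicates of each of the 4 conditions was sequenced. OPM-1 is a single cell line that was cultured without immune cells, so the values describe RNA of tumor cells alone and not protein at the cell surface.

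CD80 and CD86 on antigen-presenting cells bind CD28 on T cells to give the second signal of activation, and ICOSLG does the same through ICOS. CD40 is the receptor for CD40 ligand on helper T cells and drives activation of B cells through NF-κB. CD274 encodes PD-L1, the ligand of the inhibitory receptor PD-1, and LGALS9 encodes galectin-9, a ligand of TIM-3. FAS binds Fas ligand, and TNFRSF10A (TRAIL-R1, DR4) and TNFRSF10B (TRAIL-R2, DR5) bind TRAIL, the product of TNFSF10; all 3 receptors recruit FADD and caspase-8 to start apoptosis. Lenalidomide binds cereblon and leads to degradation of the transcription factors IKZF1 and IKZF3, and it is used in myeloma for its direct effect on the tumor cell as well as for its effect on immune cells. Interferon regulatory factors and NF-κB are known regulators of several of these genes, CD274 among them.

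Levels are given as RPKM, reads per kilobase of gene length scaled to the total of reads counted on genes, as the authors deposited them. Reads behind a value were computed back from the RPKM and the deposited gene length, and all values came out whole within 0.05 of a read. Between 16352548 and 31386210 reads were counted on genes per sample, with 16352548 to 20419807 in LEN+AI-10-104 and 21297486 to 31386210 in DMSO. A value that rests on at most 3 reads was treated as under the floor. The cells carried the markers of their label: all 10 plasma cell markers had a mean of at least 0.5 RPKM. Their summed level was 4638 to 4884 RPKM with DMSO, 4526 to 4674 with LEN, 5044 to 5293 with AI-10-104 and 4409 to 4633 with both drugs, so that AI-10-104 lay above the other conditions without overlap and the combination below DMSO. JCHAIN, with a mean of 3285 RPKM, made up most of this sum, which does not speak for all 10 markers. JCHAIN differed by 0.09 between AI-10-104 and DMSO on the log2 scale (limma adjusted p = 0.258), and the 10 markers ran from −0.06 (POU2AF1) to 0.69 (SLAMF7) there. Of these markers limma called SLAMF7, which was 0.69 higher in AI-10-104 than in DMSO on the log2 scale (adjusted p = 0.000113), and XBP1, which was lower in LEN and in LEN+AI-10-104 than in AI-10-104 (−0.47 and −0.35). The part of these shifts in the results on the 10 genes was not tested. None of 9 myeloid and dendritic cell markers reached 0.5 RPKM, and their summed level ranged from 0.352 to 0.916 RPKM with DMSO, 0.595 to 0.635 with LEN, 0.449 to 0.657 with AI-10-104 and 0.621 to 1.08 with both drugs. The 8 T and NK cell markers summed to at most 0.604 RPKM and the 5 stromal markers to at most 0.0260 RPKM in any sample, and in each of these 3 lists 2 markers had 0 reads.

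The 5′ flank of CD274 is shown because its letters include the core of the element that interferon regulatory factors bind, and because genes of those factors are among the related genes below. It covers chr9:5450292-5450502 on the plus strand of GRCh38.p14 (RefSeq), upstream of the first base that GENCODE 44 annotates as exon of CD274, and is written 5′ to 3′. Capitals mark 2 overlapping matches of GAAANNGAAA, both on the minus strand, at chr9:5450334-5450343 and chr9:5450340-5450349.
CD274: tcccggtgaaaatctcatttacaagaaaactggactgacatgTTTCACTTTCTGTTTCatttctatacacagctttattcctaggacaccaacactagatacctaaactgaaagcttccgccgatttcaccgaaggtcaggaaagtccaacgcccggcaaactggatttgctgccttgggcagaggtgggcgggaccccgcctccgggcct
Promoter sequences, reaching from 250 bases before to 50 bases after a transcript start, were matched for 7 of the 10 genes, in 10 sequences. On either strand, GAAANNGAAA was present in the promoters of CD274, LGALS9 and TNFSF10 and in 3.57% of all 35116 promoters. The RUNX core TGTGGT was present in both promoters of CD86 and in that of LGALS9, against 13.1% of all promoters. These matches are letters in a window and not evidence of binding.

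Ordered by level, the 10 genes fell into a group of 3 death receptor genes above 1 RPKM and a group of 7 genes under 0.5 RPKM. TNFRSF10A had the highest level, with a mean of 16.0 RPKM over the 12 samples, above 84.0% of the genes that had any read. FAS (1.47 RPKM) and TNFRSF10B (1.44 RPKM) came next and could not be ordered, since FAS ranged from 1.37 to 1.59 RPKM and TNFRSF10B from 1.25 to 1.75 RPKM over the samples. CD274 (0.123 RPKM) and CD86 (0.0993 RPKM) followed, again with overlapping ranges. TNFSF10 (0.0226 RPKM), LGALS9 (0.00823 RPKM), CD80 (0.00408 RPKM) and ICOSLG (0.000913 RPKM) had at most 3 reads in any sample, and CD40 had 0 reads in all 12. The order between genes depends on the deposited gene lengths, which differ from the exon bases of GENCODE 44, for example 9744 against 29313 bases for FAS and 1750 against 2927 bases for TNFRSF10A.

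**Figure D1:**
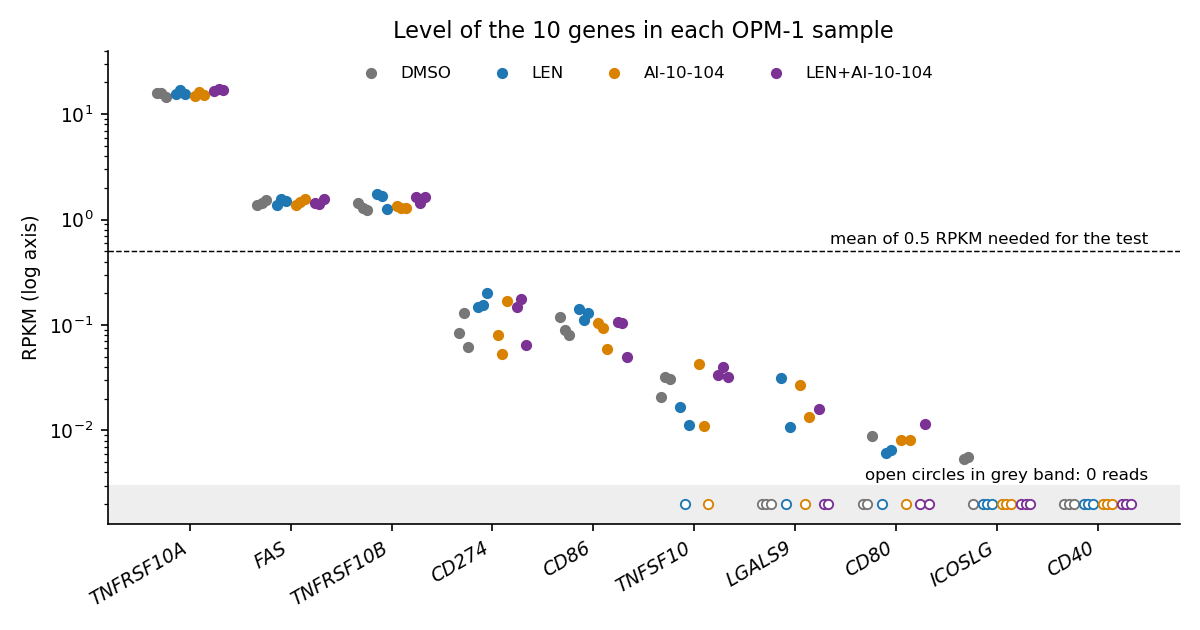
RPKM on a log axis (vertical) of each of the 10 genes (horizontal, ordered by mean level) in each of the 12 samples, colored by condition, with open circles in the grey band for samples with 0 reads. TNFRSF10A sits between 14.7 and 17.5 RPKM, FAS and TNFRSF10B lie close to each other, and the other 7 genes are under the mean of 0.5 RPKM that the main test required.

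Of the costimulatory genes, CD40 and CD80 were at or close to the limit of detection in every condition, and CD86 was low. CD40 (chromosome 20, 46118271 to 46129863) had 0 reads in every sample. The floor of 3 reads corresponds to 0.00370 RPKM for this gene over the 12 samples together. The MANE transcript of CD40 aligned to a single place in the genome, and the neighboring gene NCOA5, which lies 28309 bases away, had 2017 to 3837 reads per sample. CD80 (chromosome 3, 119524293 to 119559614) had 0, 0 and 1 reads in the DMSO samples, 0, 1 and 1 in LEN, 1, 0 and 1 in AI-10-104, and 0, 1 and 0 in LEN+AI-10-104. No condition stood apart, and CD80 overlaps TIMMDC1 on the opposite strand, which had 252 to 552 reads.

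ICOSLG (chromosome 21, 44215382 to 44241446) had 1 read in each of 2 DMSO samples and 0 in the other 10 samples. Its MANE transcript aligned at 2 places on chromosome 21, with at least 99% identity over at least 80% of the transcript, and LOC102723996, the gene at the other place, had 0 or 1 reads. U2AF1, a splicing factor gene that every cell uses, likewise aligned at 2 places on chromosome 21 and was listed with 1 to 6 reads per sample. The part of multiple placement in the low value of ICOSLG was not tested, and no statement on its expression is made.

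CD86 (chromosome 3, 122055362 to 122121139) was the costimulatory gene with the most reads, 86 over the 12 samples. It had 11, 8 and 5 reads in DMSO, 8, 10 and 11 in LEN, 7, 8 and 4 in AI-10-104, and 6, 5 and 3 in LEN+AI-10-104. As RPKM these were 0.120, 0.0905 and 0.0803 in DMSO, 0.141, 0.112 and 0.131 in LEN, 0.105, 0.0927 and 0.0591 in AI-10-104, and 0.106, 0.105 and 0.0502 in LEN+AI-10-104. The LEN samples overlapped those of DMSO, and all 3 lay above every AI-10-104 and every LEN+AI-10-104 sample. The mean levels were 0.128 ± 0.0145 RPKM (SD, n = 3) in LEN and 0.0868 ± 0.0317 RPKM in LEN+AI-10-104. Summed over replicates, 29 reads in LEN have a 95% exact Poisson interval of 19.4 to 41.6, and 14 reads in LEN+AI-10-104 an interval of 7.65 to 23.5, so the counting intervals overlap. These intervals cover counting error only. With a mean of 7.17 reads CD86 was under both expression filters. In the fit without a filter (24115 genes) it differed by −0.30 between LEN+AI-10-104 and LEN (limma adjusted p = 0.477) and by 0.30 between LEN and AI-10-104 (0.378). An exact two-sided permutation test of 3 against 3 samples cannot go below p = 0.1.

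Of the checkpoint ligand genes, CD274 was measurable at a low level and LGALS9 was not. LGALS9 (chromosome 17, 27629798 to 27649560) had 0 reads in all 3 DMSO samples, 2, 0 and 1 in LEN, 2, 0 and 1 in AI-10-104, and 1, 0 and 0 in LEN+AI-10-104. All of these are under the floor, so no fold change is given. Its near copies LGALS9B and LGALS9C had 0 to 5 and 0 to 8 reads per sample, and reads shared between the copies cannot be assigned with certainty.

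CD274 (chromosome 9, 5450503 to 5470566) had 10, 15 and 5 reads in DMSO, 11, 18 and 22 in LEN, 7, 6 and 15 in AI-10-104, and 11, 11 and 5 in LEN+AI-10-104. The levels were 0.0838, 0.131 and 0.0617 RPKM in DMSO and 0.149, 0.155 and 0.201 RPKM in LEN. They were 0.0808, 0.0535 and 0.170 RPKM in AI-10-104 and 0.149, 0.177 and 0.0644 RPKM in LEN+AI-10-104. All 3 LEN samples lay above all 3 DMSO samples, whereas the samples of AI-10-104 and of LEN+AI-10-104 overlapped those of every other condition. The mean was 0.0920 ± 0.0351 RPKM (SD, n = 3) with DMSO and 0.168 ± 0.0284 RPKM with LEN. With AI-10-104 it was 0.102 ± 0.0611 RPKM, and with LEN+AI-10-104 it was 0.130 ± 0.0586 RPKM. Summed reads were 30 in DMSO (95% exact Poisson interval 20.2 to 42.8) and 51 in LEN (38.0 to 67.1).

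CD274 was tested with limma in the fit to the 12816 genes whose mean reached 10 reads. The difference of LEN to DMSO was 0.49 (SE 0.23) on the log2(RPKM + 0.1) scale, with a 95% interval of −0.01 to 1.00, an unadjusted p of 0.0544 from limma across genes and an adjusted p of 0.487. It was therefore not called, and the interval runs from no difference to a doubling on this scale. Because CD274 lies near the pseudocount, the size of the difference depends on it, 0.10 with a pseudocount of 1 and 0.85 with 0.01, and limma's voom on the reads gave 0.87 with an adjusted p of 0.343. Without LEN replicate 3, the highest sample, the difference was 0.41 with a limma adjusted p of 0.727, and without DMSO replicate 2, the highest control, it was 0.63 with 0.491. CD274 differed by 0.45 (limma adjusted p = 0.232) between LEN and AI-10-104, by 0.24 (0.583) between LEN+AI-10-104 and DMSO, and by −0.25 (0.592) between LEN+AI-10-104 and LEN. PDCD1LG2, the neighboring gene for the other PD-1 ligand, had 0 to 3 reads per sample.

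**Figure D2:**
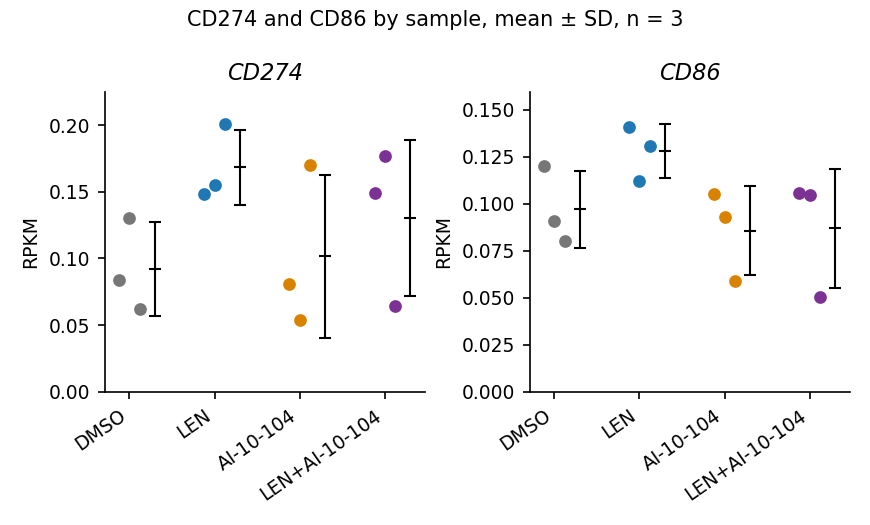
RPKM (vertical, from 0) of CD274 and CD86 in each sample (points) by condition, with the mean and SD of 3 replicates beside them. CD274 is above 0.148 RPKM in all LEN samples and under 0.131 RPKM in all DMSO samples, and the points of the other conditions spread over both ranges.

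The death ligand gene TNFSF10 (chromosome 3, 172505508 to 172523475) had 2, 3 and 2 reads in DMSO, 1, 0 and 1 in LEN, 3, 1 and 0 in AI-10-104, and 2 in each LEN+AI-10-104 sample. The LEN samples lay below those of DMSO and LEN+AI-10-104 without overlap. All of them rest on at most 3 reads, under the floor, so these values set no order between the conditions and no fold change is given.

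Among the death receptor genes, TNFRSF10A (chromosome 8, 23190452 to 23225102) had 500 to 911 reads per sample. Its level was 16.1, 15.8 and 14.7 RPKM in DMSO, 15.4, 17.1 and 15.6 in LEN, 14.9, 16.4 and 15.1 in AI-10-104, and 16.6, 17.5 and 16.8 in LEN+AI-10-104. The 3 LEN+AI-10-104 samples were above all DMSO and all AI-10-104 samples, and overlapped those of LEN. The mean was 15.5 ± 0.721 RPKM (SD, n = 3) with DMSO, 16.0 ± 0.913 RPKM with LEN, 15.5 ± 0.782 RPKM with AI-10-104 and 17.0 ± 0.455 RPKM with the combination. LEN+AI-10-104 differed from DMSO by 0.13 on the log2 scale (SE 0.05, 95% interval 0.01 to 0.24), with a limma p of 0.0315 that became 0.162 after adjustment over all 11241 genes tested. The difference to AI-10-104 alone was also 0.13 (95% interval 0.02 to 0.25, limma adjusted p = 0.103). Over the alternative settings and the fits that left out 1 sample, it ran from 0.11 to 0.17, with limma adjusted p-values of 0.0369 to 0.294. Neither difference was called, and both 95% intervals end below the fold change of 0.32 that a call required. The libraries of LEN+AI-10-104 were also the smaller ones, as given above, and the part of depth in this difference was not tested.

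TNFRSF10B (chromosome 8, 23020133 to 23069031) had 104 to 223 reads per sample. It measured 1.45, 1.28 and 1.25 RPKM in DMSO, 1.75, 1.66 and 1.25 in LEN, 1.34, 1.29 and 1.29 in AI-10-104, and 1.64, 1.44 and 1.62 in LEN+AI-10-104. In LEN 2 samples were high and replicate 3 was at the level of DMSO, so the LEN mean of 1.55 ± 0.265 RPKM (SD, n = 3) had the widest spread of the 4 conditions. The LEN+AI-10-104 samples, with a mean of 1.57 ± 0.108 RPKM, lay above all 3 AI-10-104 samples (1.31 ± 0.0299 RPKM) and overlapped DMSO (1.33 ± 0.112 RPKM). On the log2 scale TNFRSF10B differed by 0.20 (95% interval −0.05 to 0.46, limma adjusted p = 0.600) between LEN and DMSO, and by 0.23 (−0.03 to 0.48, adjusted p = 0.262) between LEN+AI-10-104 and DMSO. It differed by 0.24 (−0.01 to 0.49, limma adjusted p = 0.170) between LEN+AI-10-104 and AI-10-104. Between LEN and AI-10-104 the difference was 0.22 (SE 0.12, limma adjusted p = 0.234), and leaving out LEN replicate 3 raised it to 0.36 with an adjusted p of 0.0462, past the threshold. Its gene overlaps RHOBTB2 on the opposite strand, which had 254 to 501 reads, and the strand setting of the counting is not given in the sources used here.

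FAS (chromosome 10, 88953813 to 89029605) was at nearly the same level in the 4 conditions, with 223 to 471 reads per sample. Its samples measured 1.38, 1.44 and 1.54 RPKM in DMSO, 1.38, 1.59 and 1.50 in LEN, 1.37, 1.46 and 1.57 in AI-10-104, and 1.43, 1.40 and 1.58 in LEN+AI-10-104. The groups overlapped throughout, with means of 1.45 ± 0.0791, 1.49 ± 0.104, 1.47 ± 0.100 and 1.47 ± 0.0990 RPKM (SD, n = 3) in the same order. Differences to DMSO were 0.03, 0.01 and 0.01 on the log2 scale, each with an SE of 0.09 and limma adjusted p-values of 0.961, 0.964 and 0.945. The widest of their 95% intervals ran to −0.18 and 0.22, within the 0.32 required for a call on either side. In GENCODE 44 FAS overlaps STAMBPL1 on the same strand (188 to 378 reads) and ACTA2 on the other (0 to 11 reads).

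**Figure D3:**
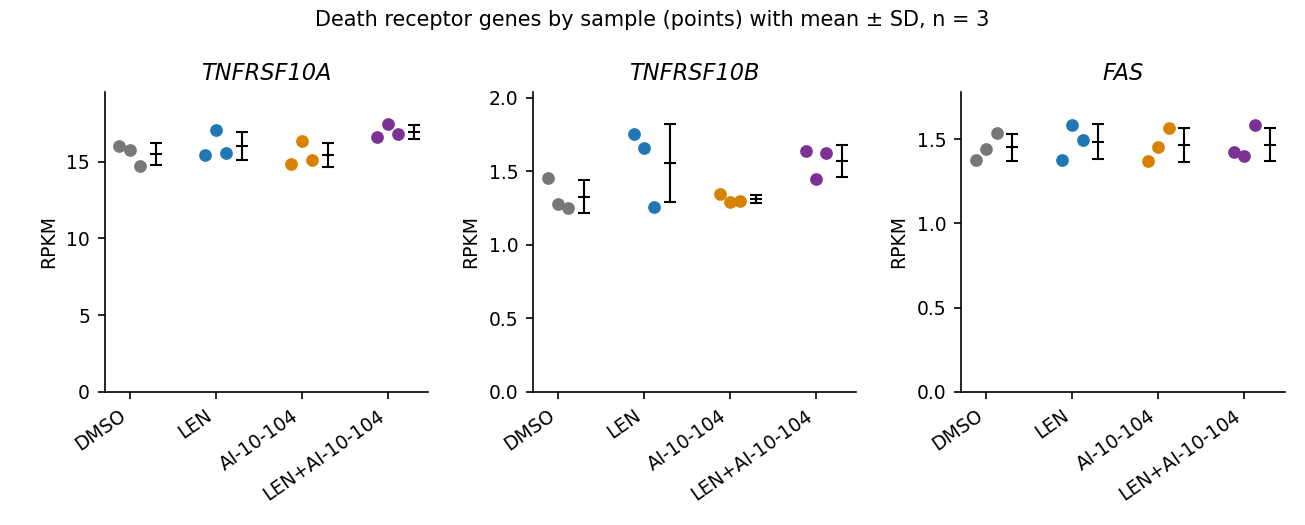
RPKM (vertical, from 0) of TNFRSF10A, TNFRSF10B and FAS in each sample (points) by condition, with the mean and SD of 3 replicates beside them. TNFRSF10A is highest in LEN+AI-10-104 with a mean of 17.0 RPKM, TNFRSF10B has a LEN sample at the DMSO level, and FAS is level over the conditions.

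Each of the comparisons of the design was then read over the 10 genes. With the filter of 0.5 RPKM, 3 of the 10 were tested, and a gene was called when its adjusted p did not exceed 0.05 and its log2 fold change reached 0.32 in either direction. Of those 3, limma called 0 in LEN versus DMSO, where 0.649% of all genes tested were called, and 0 in AI-10-104 versus DMSO, where 1.77% were. It called 0 in LEN+AI-10-104 versus DMSO against 2.94% of all genes, 0 in LEN+AI-10-104 versus LEN against 1.68%, 0 in LEN+AI-10-104 versus AI-10-104 against 3.63%, and 0 in LEN versus AI-10-104 against 3.97%. The shares over all genes moved with single libraries. Leaving out AI-10-104 replicate 2 raised them to 3.94% in AI-10-104 versus DMSO, 6.82% in LEN+AI-10-104 versus AI-10-104 and 6.14% in LEN versus AI-10-104. Leaving out any other sample gave 1.65% to 3.58% in LEN+AI-10-104 versus AI-10-104, lowest without AI-10-104 replicate 1, and under 2% without AI-10-104 replicate 3 or LEN+AI-10-104 replicate 1 as well. In AI-10-104 versus DMSO it gave 1.06% to 1.71%, with the low end without AI-10-104 replicate 1 (1.06%) or 3 (1.14%) or DMSO replicate 1 (1.09%). In LEN versus DMSO it gave 0.311% to 0.605%, with the low end without LEN replicate 1 (0.311%) or 3 (0.364%) or DMSO replicate 2 (0.418%) or 3 (0.427%). At all of these shares, the lack of a call among 3 genes does not set them apart from the other genes. At an unadjusted p under 0.05 limma had 1 of the 3, TNFRSF10A, in LEN+AI-10-104 versus DMSO and versus AI-10-104, and 0 in the other comparisons. Of all 11241 genes tested, 2659 and 3729 were under 0.05 in LEN+AI-10-104 versus DMSO and versus AI-10-104. The other pairwise comparisons had from 1206 (LEN versus DMSO) to 3288 (LEN versus AI-10-104). Such values do not set TNFRSF10A apart from the other genes.

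In the fit to genes with 10 reads or more on average, which holds 4 of the 10 genes because it adds CD274, limma again called 0 in each comparison. The share of the 12816 genes called in that fit was 0.694% in LEN versus DMSO, 1.71% in AI-10-104 versus DMSO and 3.37% in LEN+AI-10-104 versus DMSO. It was 1.89% in LEN+AI-10-104 versus LEN, 4.02% in LEN+AI-10-104 versus AI-10-104 and 4.33% in LEN versus AI-10-104. limma's voom on the reads of the same 4 genes also called 0 in each, with 1 gene at an unadjusted p under 0.05 in LEN versus DMSO, in LEN+AI-10-104 versus AI-10-104 and in LEN versus AI-10-104. Of all 12816 genes, voom had 1451, 3887 and 3761 under 0.05 in these comparisons, in the same order. The share that voom called ran from 1.01% (LEN versus DMSO) to 4.63% (LEN versus AI-10-104) over the pairwise comparisons. The comparisons share control samples and are not independent of each other.

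Groups without overlap were frequent among the 11241 genes that passed the filter of 0.5 RPKM. All shares in this paragraph are over those genes. TNFRSF10A, TNFRSF10B and FAS belong to them and are to be read against these shares. CD274, CD86 and TNFSF10 lie under that filter, and no share is given for genes as low as these. CD274 (above) and TNFSF10 (below) did not overlap between LEN and DMSO, where 16.4% of the genes past the filter did not. None of TNFRSF10A, TNFRSF10B and FAS was free of overlap between AI-10-104 and DMSO, where 23.3% of genes were. The 7 lower genes overlapped there as well. For CD40, with 0 reads in every sample, this was fixed in advance, and CD80 and ICOSLG had at most 1 read in any sample. TNFRSF10A did not overlap between LEN+AI-10-104 and DMSO (29.2% of genes), and TNFRSF10A and TNFRSF10B did not between LEN+AI-10-104 and AI-10-104 (34.1%). CD86 and TNFSF10 did not overlap between LEN+AI-10-104 and LEN (26.4%), nor did CD86 between LEN and AI-10-104 (32.1%).

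The interaction, which asks whether the difference made by LEN changed in the presence of AI-10-104, was 0.09 for TNFRSF10A (95% interval −0.07 to 0.25, limma adjusted p = 0.594) and 0.04 for TNFRSF10B (−0.32 to 0.39, 0.935). It was −0.03 for FAS (−0.29 to 0.24, 0.938) and −0.29 for CD274 (−1.01 to 0.42, 0.716). limma called 0 of the 3 genes above 0.5 RPKM and 0% of all genes tested there, although 1621 of 11241 genes had an unadjusted p under 0.05 and voom called 3 genes. Without AI-10-104 replicate 2, however, 557 of 11252 genes (4.95%) were called in the interaction, 427 of them with a positive and 130 with a negative value. TNFRSF10A, TNFRSF10B and FAS were not among them, and leaving out any other sample gave at most 2 calls. In the fit with the filter of 10 reads the share called was 0.0078%. No gene was named for a similar pattern, since that rule required a called member.

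**Figure D4:**
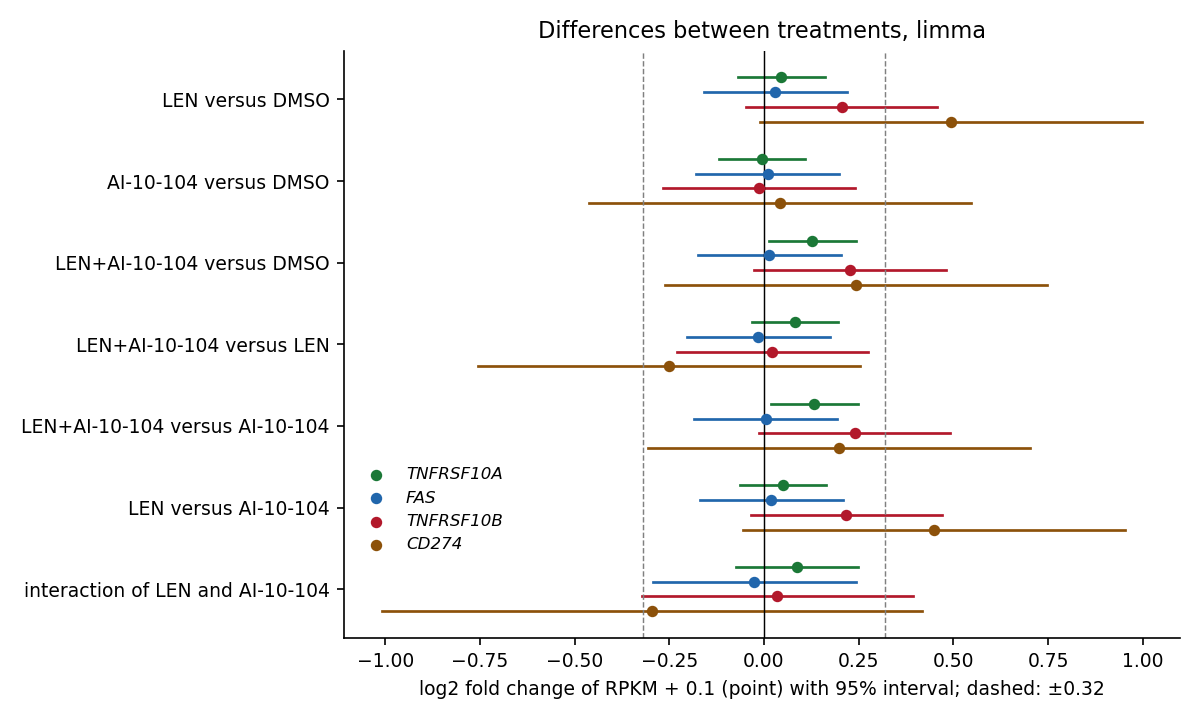
Log2 fold change of RPKM + 0.1 (horizontal, points) with its 95% interval from limma (lines) for TNFRSF10A, FAS, TNFRSF10B and CD274 in each comparison (vertical), with dashed lines at the 0.32 required for a call in either direction. The 3 death receptor genes sit within 0.24 of 0, and CD274 has the widest intervals, from −0.01 to 1.00 for LEN versus DMSO.

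Further genes, called related genes here, were taken from 5 lists of 85 genes: relatives of the costimulatory and checkpoint genes, relatives of the death receptors, death receptor signaling, CD40 signaling and transcriptional regulators. The last list includes CIITA, a regulator of MHC class II genes, which are not among the 10. These lists were chosen with earlier results of these data known. The counts set beside the shares over all genes are therefore a description and not a test of the lists. Of the 85, 52 had a mean of at least 0.5 RPKM. In LEN+AI-10-104 versus DMSO 7 of the 52 rose and 0 fell, where 2.94% of all genes tested were called, with a median log2 fold change of 0.09 against 0.02 over all genes tested. In AI-10-104 versus DMSO 4 rose and 0 fell (1.77% of all genes called, median 0.05 against 0.01), and in LEN versus DMSO 1 rose and 0 fell (0.649% of all genes called, median 0.04 against −0.00).

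Of the list of transcriptional regulators all 15 genes were tested, and 4 rose in LEN+AI-10-104 versus DMSO. CIITA, the master regulator of MHC class II genes, measured 2.20 ± 0.0626 RPKM (SD, n = 3) with DMSO, 2.95 ± 0.0515 with LEN, 3.19 ± 0.111 with AI-10-104 and 4.54 ± 0.265 with the combination, a log2 fold change of 1.01 (SE 0.06, limma adjusted p = 8.03e-07) for the last. CIITA also rose by 0.40 in LEN (limma adjusted p = 0.00435) and by 0.51 in AI-10-104 (0.000345), though the rise in LEN was 0.30, under the required 0.32, with a pseudocount of 1. IRF1, an interferon regulatory factor that is known to induce CD274, rose from 9.25 ± 0.212 RPKM in DMSO to 13.6 ± 0.284 in LEN+AI-10-104 (0.55, limma adjusted p = 3.57e-06). In the same comparison CD274 differed by 0.24 with an adjusted p of 0.583.

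NFKB2 and RELB, the subunits of the noncanonical NF-κB pathway that CD40 engages, rose in LEN+AI-10-104 versus DMSO by 0.47 and 0.49 (limma adjusted p = 0.000139 and 0.00169). They also rose in AI-10-104 alone by 0.34 each (limma adjusted p = 0.00241 and 0.0215). The latter calls were not stable: NFKB2 was at 0.30 without DMSO replicate 3, and RELB at 0.26 without AI-10-104 replicate 2. RELB stayed at 0.33 to 0.36 without DMSO replicate 1, 2 or 3 or AI-10-104 replicate 3, but with limma adjusted p-values of 0.0554 to 0.0778. With all samples kept it was at 0.34, with an adjusted p of 0.0606 without a filter on low genes and 0.0720 when only the groups compared were fitted. BIRC3, an inhibitor of apoptosis in the death receptor complexes and a known NF-κB target, rose from 65.5 ± 6.71 RPKM in DMSO to 95.5 ± 6.47 in AI-10-104 (0.55, limma adjusted p = 0.00230) and 87.9 ± 3.27 in LEN+AI-10-104 (0.43, 0.00640). Of the 7 tested of 9 CD40 signaling genes limma called 0 in LEN+AI-10-104 versus DMSO, with 4 at an unadjusted p under 0.05 and a range of −0.05 to 0.31. In that comparison 2659 of all 11241 genes tested had an unadjusted p under 0.05 and 2.94% were called. The list was chosen with earlier results known, so its count is a description.

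In death receptor signaling 18 of 20 genes were tested, and BIRC3 was the only one called against DMSO. FADD (24.6 to 28.1 RPKM over the samples) and CASP8 (18.8 to 22.4 RPKM), which were singled out after their values were seen, are the adaptor and the initiator caspase of the receptors. Both were present in every sample. TRADD, the adaptor of TNF receptor 1, was called in LEN+AI-10-104 versus AI-10-104 with 0.44 (limma adjusted p = 0.00851), and was 6.65 ± 0.890 RPKM with AI-10-104, 7.58 ± 0.166 with DMSO and 9.03 ± 0.333 with the combination. Of the death receptor relatives 4 of 13 were tested, and TNFRSF12A, the receptor of TWEAK, rose from 11.1 ± 0.562 RPKM in DMSO to 15.1 ± 1.14 in LEN+AI-10-104 (0.44, limma adjusted p = 0.00737). IRF9, part of the interferon-activated complex ISGF3, was called in LEN+AI-10-104 versus AI-10-104 with 0.35 (limma adjusted p = 0.0130), a call that was lost with a pseudocount of 1 (0.30), with quantile normalization (0.31), without AI-10-104 replicate 1 (0.30) and without LEN+AI-10-104 replicate 1 (0.33) or 3 (0.31).

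Of the 28 costimulatory and checkpoint relatives 8 were tested, and BTN2A2, a butyrophilin, rose from 10.4 ± 0.543 RPKM in DMSO to 14.2 ± 1.01 in LEN+AI-10-104 (0.44, limma adjusted p = 0.000984). CD28, the receptor of CD80 and CD86, was singled out after its values were seen. It ranged from 42.8 to 47.9 RPKM over the 12 samples while CD80 and CD86 did not exceed 0.0114 and 0.141 RPKM. CD28 was not called, with a difference of 0.02 between LEN+AI-10-104 and DMSO (limma adjusted p = 0.834).

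**Figure D5:**
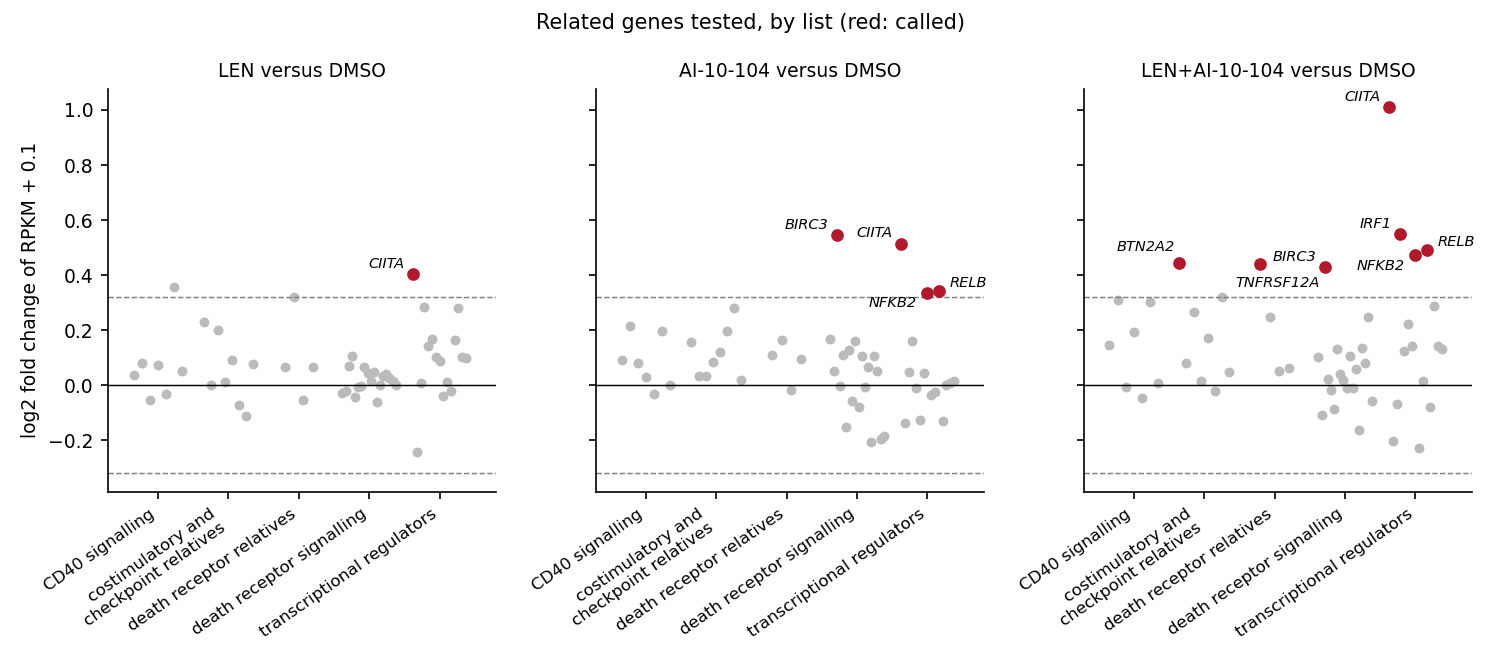
Log2 fold change of RPKM + 0.1 (vertical) of the 52 related genes tested, by list (horizontal), in LEN, AI-10-104 and LEN+AI-10-104 versus DMSO, with called genes in red and named and dashed lines at 0.32 in either direction. Called genes number 1, 4 and 7, and CIITA is the highest of them in LEN+AI-10-104 at 1.01.

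Several related genes were listed at 0 reads in all samples, among them FASLG, the ligand of FAS, and TNF, LTA, LTB and TNFRSF14. The transcripts of TNF, LTA and LTB aligned at 7, 7 and 8 places, because alternate contigs of the genome carry copies, and that of TNFRSF14 at 2. BAG6 and RPS18, genes that every cell uses, aligned at 7 and 5 places and had 0 to 1 and 0 reads. FASLG aligned at a single place. Of the related genes, 6 were placed more than once, and 5 of these had at most 3 reads in every sample, against 15 of the 78 placed at a single site. Whether the authors' index held alternate contigs is not given in the sources used here, so a listed 0 of a gene with several places is not read as absence. CD40, CD80, CD86, CD274, LGALS9, TNFSF10, FAS, TNFRSF10A and TNFRSF10B were each placed at a single site.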

How the data were processed

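Poly(A) RNA of OPM-1 cells was sequenced from 3 biological replicates in each of 4 conditions (12 samples). Per the study's methods and the labels, reads were mapped to GRCh38 with STAR. The deposited values are RPKM per the file headers, with gene lengths from featureCounts, although the plan for the tests allowed for FPKM. The annotation and strand setting were not given in the sources used here. RPKM times gene length gave whole reads for 100% of values in each sample (tolerance 0.05), so reads were computed back, and counts of reads per sample ranged from 16352548 to 31386210. The spread between replicates was wider than counting alone gives, with a chi-square per degree of freedom from 1.88 to 9.64. The exact Poisson intervals and the floors (3 reads) cover counting error only, whereas the limma intervals rest on the spread between replicates.

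The 10 genes and the lists were chosen with earlier results of these data known. The 11241 of 38478 genes whose mean reached 0.5 RPKM were tested on log2(RPKM + 0.1) with limma 3.58.1 (R 4.3.3), using all 12 samples, 1 mean per condition, a variance trend and Benjamini-Hochberg adjustment over all genes tested. A gene was called when its adjusted p did not exceed 0.05 and its log2 fold change reached 0.32 in either direction, with the adjusted p alone for the interaction. Lower genes were tested in a second fit that required 10 reads on average (12816 genes). Fold changes on this scale understate those of low genes. All 10 genes were named, and from each list every gene called in a pairwise comparison. On simulated data with 200 changed genes in LEN+AI-10-104 versus DMSO over 38478 genes, 55 of 100 genes with a log2 fold change of 0.6 and 92 of 100 with 1 were called, with 4 unchanged genes called. The simulation gave every gene the same fixed dispersion, which was not estimated from these data. It checks that the code finds changes, and its call rates do not give the sensitivity of the test on the real samples.

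Alternatives were pseudocounts of 1 and 0.01, other filters (a mean of 1 RPKM, 10 reads or none), median-ratio rescaling, quantile normalization, no fold change threshold, no variance trend, voom on the reads, only the groups compared, the replicate number as a block and leaving out each sample. A count model was not the main test, since the values come normalized. Coordinates are from GENCODE 44 and promoters from RefSeq (GRCh38.p14). MANE transcripts were aligned to GRCh38 with alternate contigs with minimap2 2.31-r1302, and a place needed 99% identity over 80% of the transcript. Python 3.11.15, numpy 2.4.6, pandas 2.3.3, scipy 1.17.1 and matplotlib 3.10.9 were used. No sample was left out of the main fit.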

Additional observations from a re-analysis of the deposited data

How the results depend on the processing

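Of 641 values of TNFRSF10A, TNFRSF10B, FAS and CD274 under the alternatives, 601 kept their direction and their side of the threshold, 39 changed sign and 1 passed the threshold. None of these 4 genes was called in any pairwise comparison or in the interaction under any alternative, except TNFRSF10B in LEN versus AI-10-104 without LEN replicate 3, so that the number called ranged from 0 to 1 there. With median-ratio rescaling FAS was at −0.012 in LEN+AI-10-104 versus DMSO and −0.014 versus AI-10-104, and TNFRSF10B at −0.0020 in LEN+AI-10-104 versus LEN. With quantile normalization FAS was at −0.0011 in AI-10-104 versus DMSO, −0.076 in LEN+AI-10-104 versus DMSO and −0.075 versus AI-10-104, and TNFRSF10B at −0.040 in LEN+AI-10-104 versus LEN and −0.014 in the interaction. With voom CD274 was at −0.027 in AI-10-104 versus DMSO. The other 30 changes of sign came from leaving out 1 sample, in differences that were not called. These ran, for FAS, from −0.015 to 0.080 in LEN versus DMSO, −0.037 to 0.055 in AI-10-104 versus DMSO, −0.037 to 0.053 in LEN+AI-10-104 versus DMSO, −0.066 to 0.030 versus LEN, −0.047 to 0.052 versus AI-10-104, −0.025 to 0.070 in LEN versus AI-10-104 and −0.077 to 0.022 in the interaction. For TNFRSF10A they ran from −0.00075 to 0.072 in LEN versus DMSO and −0.046 to 0.021 in AI-10-104 versus DMSO, and for TNFRSF10B from −0.053 to 0.050 in AI-10-104 versus DMSO, −0.12 to 0.11 in LEN+AI-10-104 versus LEN and −0.10 to 0.12 in the interaction. CD274 ran from −0.19 to 0.22 in AI-10-104 versus DMSO. Among related genes the same held in LEN versus DMSO for TNFRSF12A (−0.026 to 0.12), TRADD (−0.038 to 0.079) and RELB (−0.061 to 0.011), in LEN versus AI-10-104 for TNFRSF12A (−0.13 to 0.013) and in the interaction for BTN2A2 (−0.00044 to 0.098).

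The number of related genes called in LEN versus DMSO (1) was 0 with a pseudocount of 1, 2 without a variance trend, 2 with voom and 4 without a fold change threshold. Without that threshold it was 8 in AI-10-104 versus DMSO (4 with it), 13 in LEN+AI-10-104 versus DMSO (7), 9 in LEN+AI-10-104 versus LEN (5), 11 versus AI-10-104 (5) and 13 in LEN versus AI-10-104 (2). It was 3 in LEN+AI-10-104 versus LEN without a filter, and 3 in LEN+AI-10-104 versus AI-10-104 with a pseudocount of 1 or quantile normalization. Leaving out 1 sample gave 2 to 4 in AI-10-104 versus DMSO (2 without DMSO replicate 3), 3 to 5 in LEN+AI-10-104 versus LEN (3 without LEN replicate 1 or 2 or LEN+AI-10-104 replicate 1 or 3), 3 to 6 in LEN+AI-10-104 versus AI-10-104 (3 without replicate 1 of either), 1 to 3 in LEN versus AI-10-104 (1 without AI-10-104 replicate 2) and 0 to 1 in the interaction (TRADD at 0.53 without AI-10-104 replicate 2, limma adjusted p = 0.0147). The causes were not tested.

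Samples with the same replicate number deviated together only weakly (mean r 0.05 over 18 pairs, from −0.03 to 0.16, against −0.03 over 36 pairs with different numbers), and 10 of 12 samples correlated best with a sample of their own number, a hint from the data and not the design. The fit with the replicate number as a block kept the filter of 0.5 RPKM, so 3 of the 10 genes were tested, and 0 of them were called in each comparison. The related genes called numbered 1, 4, 7, 5, 5, 2 and 0 in the order LEN, AI-10-104 and LEN+AI-10-104 versus DMSO, LEN+AI-10-104 versus LEN and versus AI-10-104, LEN versus AI-10-104 and the interaction, as without the block. Of all 11241 genes tested, 0.703%, 2.03%, 3.27%, 1.94%, 4.21%, 4.26% and 0% were called in that order.

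Of the 7 genes under 0.5 RPKM, all but CD274 had a mean under 10 reads and were below both filters. Without a filter 9 of the 10 genes (all but CD40) were tested and 0 were called in any comparison by limma. Of all 24115 genes in that fit, 0.216% (LEN versus DMSO) to 1.65% (LEN versus AI-10-104) were called in the pairwise comparisons and 0% in the interaction. At such shares the lack of a call among 9 genes does not set them apart. There were 4 values at an unadjusted p under 0.05, for TNFRSF10A in LEN+AI-10-104 versus DMSO and versus AI-10-104 and for TNFSF10, at 3 reads or fewer, in LEN+AI-10-104 versus LEN and in the interaction. The share of all genes under 0.05 in that fit is not given here, so these values are not read as results.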
